A study of Mus musculus with 31 samples.

Results

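The 9 genes described here encode proteins of endothelial cell contacts and of the endothelial surface: *Cdh5*, *Cldn5*, *Esam*, *Pecam1*, *Icam2*, *Clec14a*, *Cd93*, *Mmrn2*, and *Plvap*. They were chosen by name from the 18477 genes of the deposited expression table, and all 9 were found there. RNA-seq of single yolk sacs from 31 mouse embryos at embryonic day 8.5 covered 6 *Etv2* genotypes. These were 5 Etv2 Δ/Δ yolk sacs (delta/delta in the labels), 5 Etv2 enhΔ/Δ, 5 Etv2 enhΔ/enhΔ, 6 Etv2 +/Δ, 4 Etv2 +/enhΔ, and 6 Etv2 +/+. In the Δ allele, germline deletion with Mef2c-AHF-Cre removed exons 4 and 5, which encode the DNA-binding domain, and in the enhΔ allele the upstream *Etv2* enhancer was removed by CRISPR-Cas9 editing of FVB zygotes. The embryos were somite-matched, of both sexes, and of strain Mixed in the labels, which name no litters, and they carried no other treatment or transgene named in the labels. Levels are given in CPM, the reads of a gene scaled to a common library size, in which 1 read was worth 0.0440 to 0.378 CPM, depending on the library.

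*Etv2* encodes an ETS-family transcription factor that is required for the formation of blood and endothelial progenitors from mesoderm. VE-cadherin (*Cdh5*) holds endothelial cells together at adherens junctions, where its cytoplasmic tail binds catenins, and claudin-5 (*Cldn5*) seals the tight junctions of endothelium. *Esam*, *Pecam1*, and *Icam2* encode adhesion molecules with immunoglobulin domains. *Clec14a* and *Cd93* encode related C-type lectin domain receptors that bind multimerin-2, the matrix protein encoded by *Mmrn2*, and *Plvap* encodes the protein of the diaphragms that span endothelial fenestrae and caveolae.

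The genes lie apart from each other in the genome, except that *Icam2* and *Pecam1* lie in the same region of chromosome 11. In mm9, the build of the files, *Cdh5* is at chr8:106625525-106668402 and *Plvap* at chr8:74021653-74035668. *Icam2* is at chr11:106238970-106249389 and *Pecam1* at chr11:106515531-106611942. The rest are *Cldn5* at chr16:18776940-18778353, *Esam* at chr9:37335663-37345904, *Clec14a* at chr12:59365707-59370245, *Cd93* at chr2:148262376-148269299, and *Mmrn2* at chr14:35188690-35217473. All 9 are annotated as protein coding, no exon of any of them overlaps an exon of another gene, and *Cldn5* and *Clec14a* each have 1 exon.

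RefSeq promoter sequence (GRCm38.p6) was at hand for 2 of the 9 genes, *Clec14a* and *Cldn5*. The 250 bases before each start site are shown because *Etv2* encodes an ETS factor and both genes fell in the null. Capitals mark every GGAA, the core of ETS motifs, on either strand (TTCC where it lies on the opposite strand). The windows are chr12:58269259-58269508, minus strand, for *Clec14a* and chr16:18776597-18776846, plus strand, for *Cldn5*.
Clec14a: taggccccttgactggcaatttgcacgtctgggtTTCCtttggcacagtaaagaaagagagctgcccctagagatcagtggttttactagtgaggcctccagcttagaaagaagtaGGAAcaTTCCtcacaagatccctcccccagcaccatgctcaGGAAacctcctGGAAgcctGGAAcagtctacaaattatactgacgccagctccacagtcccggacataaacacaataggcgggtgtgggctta
Cldn5: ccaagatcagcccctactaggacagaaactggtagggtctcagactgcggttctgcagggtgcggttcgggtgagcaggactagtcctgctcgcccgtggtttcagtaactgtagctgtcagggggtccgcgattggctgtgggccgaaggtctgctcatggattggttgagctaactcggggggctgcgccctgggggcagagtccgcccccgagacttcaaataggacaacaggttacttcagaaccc

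The *Clec14a* window held 6 GGAA cores, 4 of them in the direction of the gene, and 8.7% of 32851 promoter windows of this length held as many. The *Cldn5* window held 0, whereas 93.4% of the windows held at least 1. Neither window held AGGAAG (in 29.5% of all windows), CGGAAG (13.6%), or GATAAG (6.5%), searched on both strands; the first pair of these longer motifs contains GGAA.

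Depth was 2671612 to 22396340 reads per library (median 13894962), and the shallowest library was Etv2 Δ/Δ replicate 1. Visceral endoderm markers, a list of 12 genes, summed to 34527 to 63828 CPM over the 31 libraries, and none of the 12 was at 0 in any genotype. Reads of *Ftl2-ps*, a processed pseudogene, split the libraries into 8 with 36.5 to 50.2 CPM (5 of 6 Etv2 +/+ and 3 of 4 Etv2 +/enhΔ) and 23 with at most 0.515 CPM, so that the split largely followed genotype. *Xist* went against the label in 4 libraries labelled male, 2 of Etv2 Δ/Δ and 2 of Etv2 +/Δ (434 to 645 CPM). Etv2 Δ/Δ replicate 5, labelled female and with 639 CPM of *Xist*, also had 7.05 CPM of Y-linked reads. The other libraries with *Xist* over 50 CPM had at most 0.867 CPM of these reads, and the cause was not tested. *Etv2* itself had 0.220 to 3.59 CPM in the 16 libraries with a Δ allele and 0 to 0.491 CPM in the 15 libraries without it; counts over the whole gene include exons outside the deleted part and do not check the deletion.

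In wild-type yolk sacs the 9 genes covered a wide range of levels. Per kilobase of merged exon, *Cdh5* was highest in Etv2 +/+ with a level of 21.3 ± 3.48 RPKM, followed by *Cd93* with 13.9 ± 2.52 RPKM (SD, n = 6 each). *Plvap* with 6.68 ± 1.77, *Clec14a* with 6.02 ± 2.25, *Pecam1* with 5.47 ± 1.38, and *Cldn5* with 5.19 ± 3.15 RPKM were closer together than their spread. *Icam2* (3.45 ± 1.25 RPKM), *Esam* (2.503 ± 1.02 RPKM), and *Mmrn2* (1.47 ± 0.652 RPKM) were at the low end. Over the 26 libraries other than Etv2 Δ/Δ, the highest library was 2.15-fold above the lowest for *Cd93*, 3.19-fold for *Cdh5*, and 6.71-fold for *Cldn5*.

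**Figure D1:**
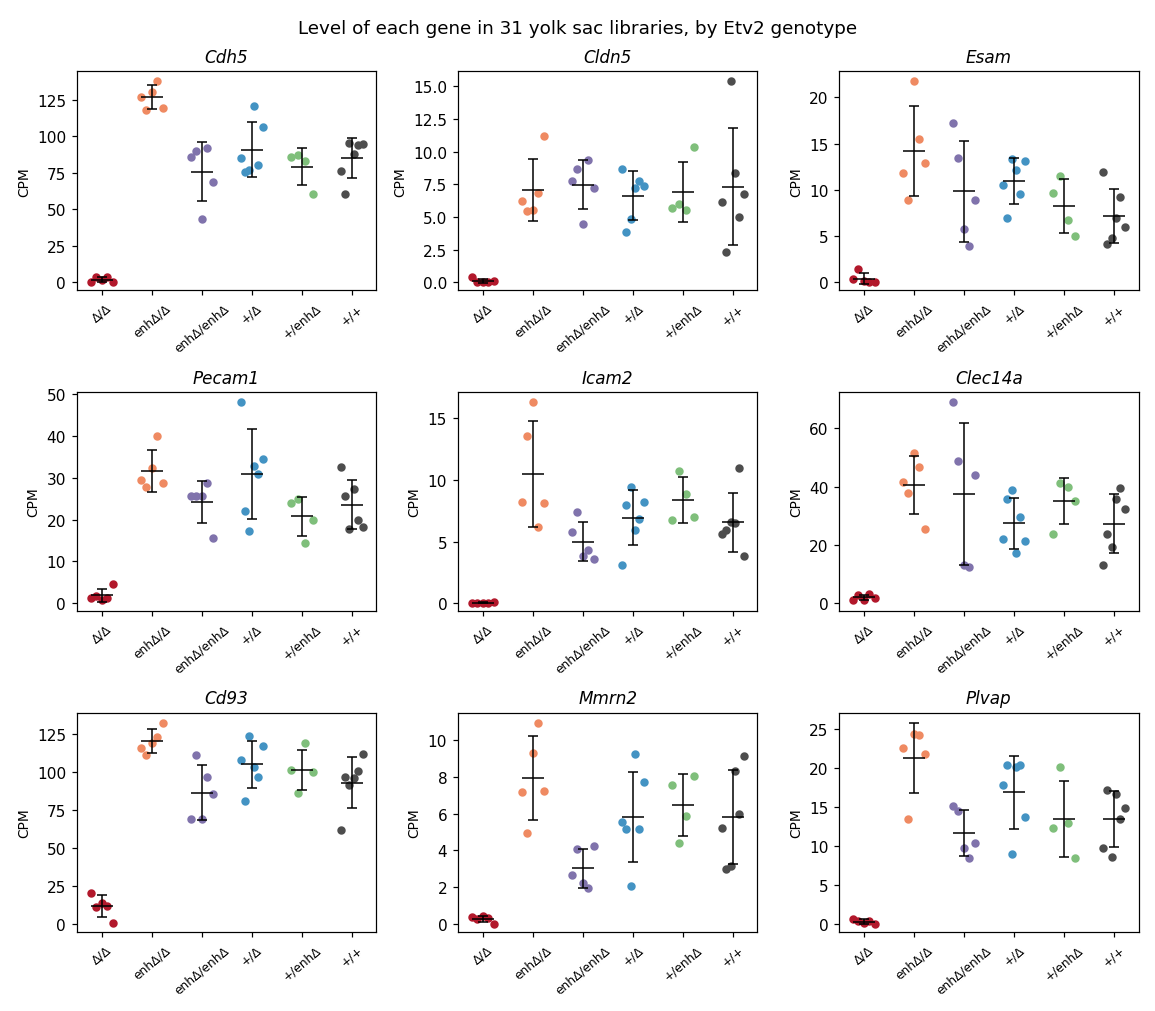
CPM of each of the 9 genes (vertical axes, linear, a separate scale for each gene) in every library, by *Etv2* genotype from Etv2 Δ/Δ at the left to Etv2 +/+ at the right; points are libraries, and the bars show mean ± SD of 4 to 6 libraries. All 5 Etv2 Δ/Δ libraries lie below every other library for each gene, and all 5 Etv2 enhΔ/Δ libraries lie above every Etv2 +/+ library for *Cdh5* (118 to 138 against 60.8 to 95.7 CPM).

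The first question was how far these genes depend on *Etv2* in the yolk sac. In Etv2 Δ/Δ yolk sacs all 9 genes fell against Etv2 +/+, and no library of one genotype overlapped the other for any of them. Of all genes tested, 7.69% were lower and 5.6% higher in Etv2 Δ/Δ at an adjusted p under 0.05, and 4.45% were lower in every library. The median difference of the 9 genes was -3.09 on the log2(CPM + 1) scale, against -0.01 over all genes. In bulk yolk sacs, fewer endothelial cells and less RNA per endothelial cell cannot be told apart.

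*Cdh5*, the adherens junction cadherin, had the largest difference of the 9 on the log2(CPM + 1) scale, on which genes of low level cannot fall as far; the pooled reads of *Icam2* and *Cldn5* fell by a larger factor. *Cdh5* had 0, 3.92, 1.93, 3.39, and 0.348 CPM in the 5 Etv2 Δ/Δ libraries, against 60.8 to 95.7 CPM (median 91.0) in Etv2 +/+. Its fitted difference was -5.12 ± 0.28 (SE, log2 scale; limma, adjusted p = 3.94e-15). The library without a *Cdh5* read, Etv2 Δ/Δ replicate 1, was the shallowest, in which 3 reads are worth 1.13 CPM.

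*Cldn5*, the claudin of endothelial tight junctions, was close to absent in the null. Its Etv2 Δ/Δ libraries had 0.378, 0.0440, 0, 0, and 0.0871 CPM, which was 3 reads in all, against 2.30 to 15.4 CPM (median 6.46) in Etv2 +/+. The difference was -2.59 ± 0.30 on the log2 scale (limma, adjusted p = 8.62e-08), a scale on which adding 1 to each CPM understates the fall of such low genes. Over the pooled reads, its level was 0.613% of that in Etv2 +/+ (95% exact interval for counting error, 0.126% to 1.80%).

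Among the immunoglobulin adhesion genes, *Icam2* was the lowest in the null. *Icam2*, a ligand of leukocyte integrins, had 2 reads in the 5 Etv2 Δ/Δ libraries together (0 to 0.0871 CPM), against 3.83 to 10.99 CPM (median 6.22) in Etv2 +/+. Its pooled level was 0.481% of Etv2 +/+ (0.0581% to 1.75%), and its difference was -2.83 ± 0.29 (limma, adjusted p = 8.22e-09). *Esam*, which joins endothelial cells at tight junctions, had 0.378, 1.45, 0.165, 0, and 0 CPM in Etv2 Δ/Δ, against 4.12 to 11.9 CPM (median 6.49) in Etv2 +/+ (-2.57 ± 0.34, limma, adjusted p = 1.26e-06). Most of its reads in the null thus came from replicate 2.

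*Pecam1*, the CD31 gene, kept reads in all 5 null libraries. It had 1.13, 1.80, 0.771, 1.23, and 4.53 CPM in Etv2 Δ/Δ, against 17.8 to 32.7 CPM (median 22.9) in Etv2 +/+ (-3.09 ± 0.26, limma, adjusted p = 6.44e-11). Replicate 5 had the most *Pecam1* of the nulls, and *Pecam1* made up 61.9% of the summed CPM of the 9 genes there, against a median of 8.02% in Etv2 +/+. PECAM-1 is also found on platelets and leukocytes. In replicate 5 the megakaryocyte and platelet list, of which 8 genes were measured, summed to 1.65 CPM, all of it from *Gp1ba*, and *Itga2b* and *Pf4* were at 0. The 5 nulls ranged from 0 to 1.65 CPM for that list, against 6.90 to 20.03 CPM in Etv2 +/+; the part of such cells in the *Pecam1* reads was not tested.

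The lectin receptors behaved unevenly. *Cd93* had 20.4, 11.04, 13.9, 12.1, and 0.609 CPM in Etv2 Δ/Δ, against 61.6 to 112 CPM (median 96.3) in Etv2 +/+, a difference of -3.38 ± 0.35 (limma, adjusted p = 1.19e-08). It thus kept 12.5% ± 7.68 of its wild-type mean (SD, n = 5), the highest share of the 9 genes, and replicate 5 stood below the other nulls. *Cd93* took 58.7% of the summed CPM of the 9 genes in the median null library, against 34.3% in Etv2 +/+.

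CD93 is also made by myeloid cells. The macrophage and myeloid list (8 genes measured) summed to 1.22 CPM in Etv2 Δ/Δ replicate 5 and to 5.66 to 10.7 CPM in the other nulls, against 4.79 to 23.2 CPM in Etv2 +/+. Within it, *Csf1r*, the receptor of macrophage colony-stimulating factor, had 7.56, 6.07, 7.27, 3.29, and 0.609 CPM in the 5 nulls, against 0.670 to 7.24 CPM (median 1.44) in Etv2 +/+. *Cd68* had 0.435 to 3.87 CPM in the nulls, against 1.63 to 3.86 CPM in Etv2 +/+. The other 6 genes of the list were at or near 0 in the nulls: *Spi1*, the gene of the myeloid factor PU.1, was at 0 in all 5, and *Ptprc*, *Lyz2*, *Tyrobp*, *Fcer1g*, and *Mpo* reached at most 0.572 CPM. The part of myeloid cells in the *Cd93* reads was not tested.

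*Clec14a*, the relative of *Cd93*, had 1.13, 2.68, 1.21, 3.19, and 1.65 CPM in Etv2 Δ/Δ, against 13.2 to 39.6 CPM (median 28.1) in Etv2 +/+ (-3.34 ± 0.35, limma, adjusted p = 1.37e-08). The values in the null ran from 1.13 to 3.19 CPM without a library flagged as apart, and that of replicate 1 came from 3 reads. *Mmrn2*, the matrix ligand of both receptors, had 0 to 0.441 CPM in Etv2 Δ/Δ, against 2.97 to 9.13 CPM (median 5.61) in Etv2 +/+ (-2.23 ± 0.31, limma, adjusted p = 2.84e-06). *Plvap*, the diaphragm gene, had 0.756, 0.484, 0.220, 0.411, and 0 CPM in Etv2 Δ/Δ, against 8.64 to 17.2 CPM (median 14.2) in Etv2 +/+ (-3.41 ± 0.26, limma, adjusted p = 9.88e-12).

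The level left in the null therefore differed between the genes. As means of the 5 libraries it was 0.433% of Etv2 +/+ for *Icam2*, 1.39% for *Cldn5*, 2.26% for *Cdh5*, 2.78% for *Plvap*, 4.80% for *Mmrn2*, 5.56% for *Esam*, 7.23% for *Clec14a*, 8.02% for *Pecam1*, and 12.5% for *Cd93*. Single libraries carried several of these means. Without replicate 2 the mean was 1.89% for *Esam*, without replicate 1 it was 0.447% for *Cldn5* (below *Icam2* at 0.541%), and without replicate 5 it was 5.23% for *Pecam1* and 0.210% for *Icam2*. The mean of *Cd93* stayed the highest with any one null library left out (10.1% to 15.5%). In single libraries *Cd93* was not always the highest: *Esam* had 20.2% against 11.9% in replicate 2, and *Pecam1* had 19.2% against 0.655% in replicate 5. The intervals of the pooled reads of *Cd93* (10.2% to 11.9%) and *Cdh5* (2.47% to 3.40%) did not overlap, but they cover counting error alone. The percentage was higher for *Cd93* than for *Cdh5* in all 5 null libraries, by little in replicate 5 (0.655% against 0.410%, from 7 and 4 reads).

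**Figure D2:**
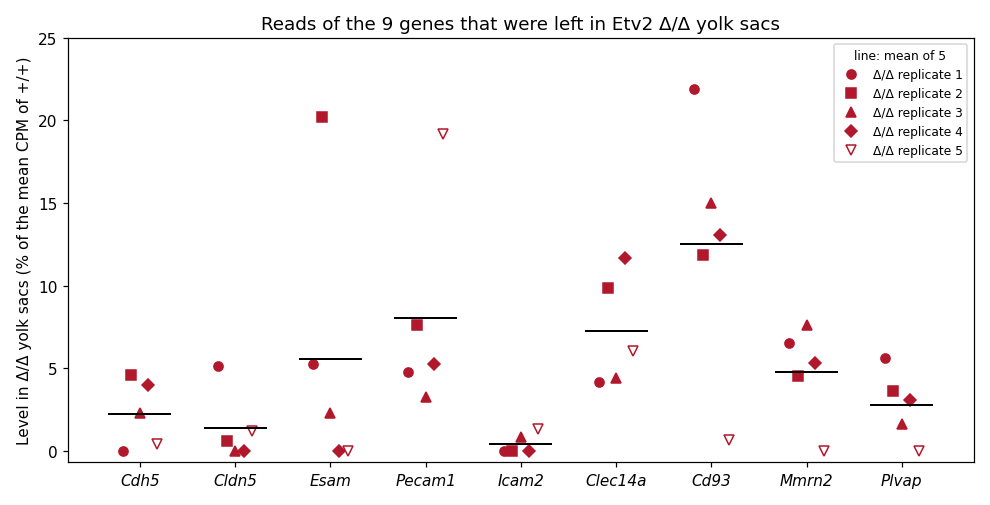
Level of each of the 9 genes in the 5 Etv2 Δ/Δ libraries as a percentage of the mean CPM of the 6 Etv2 +/+ libraries; symbols are replicates and lines are means. Means run from 0.433% for *Icam2* to 12.5% for *Cd93*, and replicate 5 (open symbol) is low for *Cd93* and high for *Pecam1*.

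The same fall was measured against the other genotypes that carry a Δ allele. Against Etv2 enhΔ/Δ, all 9 genes were lower in Etv2 Δ/Δ, with a median difference of -3.57 (range -5.71 to -2.73); 3.36% of all genes were lower, and 3.60% were lower in every library, as were all 9. Against Etv2 +/Δ, all 9 were lower as well, with a median of -3.33 (range -5.21 to -2.27), where 7.59% of all genes were lower and 4.30% in every library. These comparisons share the Etv2 Δ/Δ libraries with the one against Etv2 +/+. For *Cdh5* the difference was -5.71 ± 0.29 from Etv2 enhΔ/Δ and -5.21 ± 0.28 from Etv2 +/Δ (limma, adjusted p = 3.67e-16 and 1.17e-15).

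The second question was whether the genes fell in Etv2 enhΔ/Δ yolk sacs, which have an enhancer-deleted allele over a null. None of the 9 passed as lower than in Etv2 +/+, and all 9 fitted differences were above 0, from 0.17 for *Cldn5* to 0.90 for *Esam* (median 0.54, against 0.01 over all genes). No member passed at an adjusted p under 0.05 with limma, nor with voom on the recovered reads. An unadjusted p under 0.05 (limma) was found for 3 of the 9 (*Cdh5*, *Esam*, and *Plvap*) and for 2160 of all 18477 genes. At the adjusted threshold, 0.99% of all genes passed as lower and 0.336% as higher. In the same yolk sacs 10 of 12 erythroid markers were lower than in Etv2 +/+, with a median difference of -2.15. Of these 10 calls 6 held with the *Ftl2-ps* split as a further term, and 1 held in the libraries with few *Ftl2-ps* reads.

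*Cdh5* stood out by the separation of its libraries, not by the fit, in which *Esam* (0.90) and *Plvap* (0.62) had larger differences. It had 127, 118, 131, 138, and 119 CPM in Etv2 enhΔ/Δ, against 60.8 to 95.7 CPM (median 91.0) in Etv2 +/+, and was the member with every Etv2 enhΔ/Δ library above every Etv2 +/+ library, as were 1.43% of all genes. The fitted difference was 0.59 (95% interval 0.03 to 1.15, limma, adjusted p = 0.393), from a spread shared with the near-empty null libraries. With the Etv2 Δ/Δ libraries left out, a fit chosen after seeing the data, it was 0.62 (limma, adjusted p = 0.0429). With the 2 genotypes alone it was 0.63 (0.0157), and with the *Ftl2-ps* split as a further term 0.60 (0.372). Of all genes, 120 were higher without the Etv2 Δ/Δ libraries and 124 with the 2 genotypes alone, against 62 in the main fit. The mean level of *Cdh5* was 149% ± 9.56 of that in Etv2 +/+ (SD, n = 5).

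The adhesion genes and the receptors overlapped between the genotypes. *Esam* had 11.8, 8.85, 21.8, 15.4, and 12.9 CPM in Etv2 enhΔ/Δ, against 4.12 to 11.9 CPM (median 6.49) in Etv2 +/+ (difference 0.90, interval 0.23 to 1.58, limma, adjusted p = 0.221). *Plvap* had 22.6, 13.5, 24.4, 24.2, and 21.8 CPM, against 8.64 to 17.2 CPM (median 14.2) (0.62, 0.10 to 1.14, limma, adjusted p = 0.298). In *Plvap* a single library, replicate 2, kept the groups from separating. *Pecam1* had 29.4, 27.7, 32.4, 39.9, and 28.8 CPM in Etv2 enhΔ/Δ, against 17.8 to 32.7 CPM (median 22.9) in Etv2 +/+ (0.48, -0.03 to 0.99, limma, adjusted p = 0.463).

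For *Cd93* the values were 116, 111, 119, 123, and 132 CPM in Etv2 enhΔ/Δ, against 61.6 to 112 CPM (median 96.3) in Etv2 +/+, with a difference of 0.33 (-0.37 to 1.02). *Clec14a* (0.54, -0.15 to 1.24), *Mmrn2* (0.50, -0.11 to 1.11), and *Cldn5* (0.17, -0.42 to 0.75, with means of 7.05 CPM in Etv2 enhΔ/Δ and 7.34 CPM in Etv2 +/+) had intervals that held 0, and *Icam2* (0.57, upper bound 1.15) just reached 0. The lower bound of the interval was -0.42 for *Cldn5*, -0.37 for *Cd93*, and -0.15 or higher for the other 7 genes.

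Library measures moved with this comparison. The share of mitochondrial reads was 8.58% ± 1.13 in Etv2 enhΔ/Δ and 12.2% ± 2.83 in Etv2 +/+ (SD, n = 5 and 6), and the summed CPM of 12 erythroid markers was 507 to 2419 in Etv2 enhΔ/Δ and 1698 to 5676 in Etv2 +/+. Endothelial markers, a list of 20 other genes, summed to 819 to 933 CPM in Etv2 enhΔ/Δ and 636 to 833 CPM in Etv2 +/+, and their median difference was 0.41. Of these 20, *Kdr*, the main VEGF receptor of endothelium, was higher (145 ± 9.08 against 98.6 ± 19.0 CPM; 0.62 ± 0.15, limma, adjusted p = 0.0265). The adjusted p of *Kdr* was 0.00505 to 0.477 over the alternative fits and libraries left out, and the call was lost in 12 of 24. The part of these measures in the differences of the 9 genes was not tested.

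Against Etv2 +/Δ, which has the same Δ allele over a wild-type one, no member passed in Etv2 enhΔ/Δ and none had an unadjusted p under 0.05 (limma; of all genes, 0.871% passed as lower and 0.373% as higher). The median difference was 0.33, from 0.10 for *Cldn5* and *Pecam1* to 0.55 for *Clec14a*. *Cdh5* had 127 ± 8.13 CPM in Etv2 enhΔ/Δ and 90.9 ± 18.6 CPM in Etv2 +/Δ (SD, n = 5 and 6), and the groups overlapped at 118 and 121 CPM.

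Against Etv2 enhΔ/enhΔ, which lacks the enhancer on both alleles but has no Δ allele, 1 of the 9 genes was higher in Etv2 enhΔ/Δ and none was lower, where 1.32% of all genes were higher. That gene was *Mmrn2*, with 7.17, 4.96, 9.30, 10.9, and 7.24 CPM in Etv2 enhΔ/Δ, against 2.67, 4.07, 2.22, 1.97, and 4.21 CPM in Etv2 enhΔ/enhΔ. The groups did not overlap, and the difference was 1.20 ± 0.31 (limma, adjusted p = 0.0329). The adjusted p ranged from 0.0165 to 0.106 over the alternative fits, and leaving out 1 library at a time gave 0.0175 to 0.108, so that the call was lost without any of 7 of the 10 libraries (Etv2 enhΔ/Δ replicates 1, 3, 4, and 5 and Etv2 enhΔ/enhΔ replicates 1, 3, and 4).

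*Cdh5* and *Cd93* were likewise higher in every Etv2 enhΔ/Δ library than in every Etv2 enhΔ/enhΔ library, as were 2.57% of all genes. *Cdh5* had 118 to 138 CPM in Etv2 enhΔ/Δ, against 85.8, 89.9, 43.2, 91.9, and 68.5 CPM in Etv2 enhΔ/enhΔ (0.78 ± 0.29, limma, adjusted p = 0.148). *Cd93* had 111.4 to 132 CPM, against 69.1, 110.96, 69.3, 96.8, and 85.2 CPM (0.45 ± 0.36, limma, adjusted p = 0.606). With the Etv2 Δ/Δ libraries left out of the fit, a choice made after seeing the data, 3 members passed, namely *Cdh5*, *Cd93*, and *Mmrn2*. That fit also called more of all genes, 386 higher and 351 lower, against 243 and 186 in the main fit. Mitochondrial reads were 8.58% ± 1.13 in Etv2 enhΔ/Δ and 16.5% ± 4.46 in Etv2 enhΔ/enhΔ (SD, n = 5 each), and 5 of 12 visceral endoderm markers were higher in Etv2 enhΔ/Δ; their part in these differences was not tested.

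**Figure D3:**
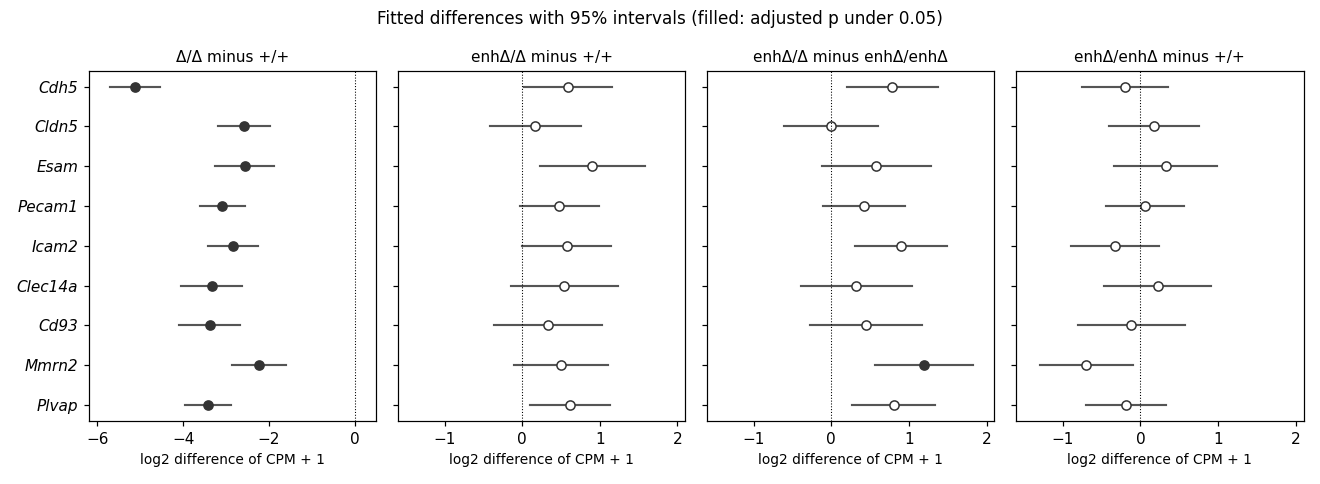
Fitted differences of the 9 genes on the log2(CPM + 1) scale (horizontal axes; points, limma estimates; lines, 95% intervals) for Etv2 Δ/Δ minus Etv2 +/+, Etv2 enhΔ/Δ minus Etv2 +/+, Etv2 enhΔ/Δ minus Etv2 enhΔ/enhΔ, and Etv2 enhΔ/enhΔ minus Etv2 +/+; the first panel has its own scale. Filled points passed at an adjusted p under 0.05: all 9 in the first panel and *Mmrn2* in the third.

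The third question was whether the genes differed from wild type in the remaining genotypes. In Etv2 enhΔ/enhΔ, Etv2 +/Δ, and Etv2 +/enhΔ no member passed in either direction, by limma or by voom, but few genes did so at all: in Etv2 enhΔ/enhΔ 0.0162% of the genes passed as lower and 0.00541% as higher, 0.0216% and 0.00541% in Etv2 +/Δ, and 0 of 18477 in Etv2 +/enhΔ, where voom passed 0 as well and 821 genes had an unadjusted p under 0.05 with limma. Median differences of the 9 genes were -0.12 in Etv2 enhΔ/enhΔ, 0.09 in Etv2 +/Δ, and 0.19 in Etv2 +/enhΔ. The member with an unadjusted p under 0.05 (limma) in these comparisons was *Mmrn2* in Etv2 enhΔ/enhΔ, where 1320 of all 18477 genes had one. It had 1.97 to 4.21 CPM there, against 2.97 to 9.13 CPM in Etv2 +/+ (-0.70, interval -1.30 to -0.09, limma, adjusted p = 0.643).

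Some values in these genotypes spread widely. *Clec14a* had 69.1, 48.7, 13.0, 12.4, and 43.8 CPM in the 5 Etv2 enhΔ/enhΔ libraries, an SD of 24.5 around a mean of 37.4 CPM. *Pecam1* in Etv2 +/Δ ran from 17.3 to 48.2 CPM (median 31.9). Over the 6 genotypes all 9 genes passed the F test of limma, as did 12.1% of all genes. By mean level, Etv2 Δ/Δ was lowest for all 9 and Etv2 enhΔ/Δ was highest for 8. The exception was *Cldn5* (7.49 CPM in Etv2 enhΔ/enhΔ, 7.34 in Etv2 +/+, and 7.05 in Etv2 enhΔ/Δ, closer than their spread). The share of all genes with such an order of means was not counted.

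Partners of the 9 proteins were examined in gene lists. Of 12 adherens junction partners of VE-cadherin, 1 fell in Etv2 Δ/Δ and 1 rose against Etv2 +/+, with a median difference of -0.07. As a yardstick for this and the following lists, 7.69% of the 18477 tested genes fell in that comparison and 5.6% rose. For Etv2 enhΔ/Δ against Etv2 +/+ these shares were 0.99% and 0.336%. *Ptprb*, the endothelial phosphatase that acts on VE-cadherin, had 3.42 ± 2.19 CPM in Etv2 Δ/Δ and 26.5 ± 7.55 CPM in Etv2 +/+ (-2.83 ± 0.32, limma, adjusted p = 7.78e-08). *Ctnnb1*, the gene of β-catenin, had 890 ± 39.3 CPM in Etv2 Δ/Δ and 670 ± 19.7 CPM in Etv2 +/+ (0.42 ± 0.07, limma, adjusted p = 1.49e-04). The receptor gene *Tek* had 104 ± 20.2 CPM in Etv2 Δ/Δ and 123 ± 22.7 CPM in Etv2 +/+ and did not pass (-0.24 ± 0.16, limma, adjusted p = 0.375).

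In Etv2 Δ/Δ, none of 15 tight junction and junctional adhesion genes fell and 2 rose. *Ocln*, which encodes the tight junction protein occludin, had 106 ± 23.6 CPM in Etv2 Δ/Δ and 62.3 ± 4.24 CPM in Etv2 +/+ (0.73 ± 0.16), and *Amotl2*, an angiomotin family gene, had 46.0 ± 11.8 and 29.4 ± 5.06 CPM (0.63 ± 0.20). Over 22 alternative fits and libraries left out, the call was lost in 2 for *Ocln* and in 9 for *Amotl2*, each time without a change of direction. In Etv2 enhΔ/Δ 2 other genes of the list were higher than in Etv2 +/+, *Cgnl1*, a cingulin relative (118 ± 22.4 against 72.2 ± 9.85 CPM), and *Amotl1* (68.3 ± 7.50 against 36.0 ± 10.1 CPM), calls that were lost in 14 and 13 of 24 cases. Of 15 epithelial junction genes 4 were higher in Etv2 Δ/Δ and none lower. These were *Dsc2*, *Dsp*, and *Pkp2* of desmosomes and *Cldn6*, with differences of 0.37 to 0.79. The call of *Dsp* was lost in 16 of 22 cases, that of *Cldn6* in 4.

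Of 19 endothelial surface adhesion genes measured, 8 were lower in Etv2 Δ/Δ and none higher; over all genes 7.69% were lower. Among them were *Itgb3*, an integrin subunit (1.04 ± 1.41 against 38.3 ± 10.7 CPM), and *Cd34*, the sialomucin (0.0871 to 0.926 against 16.4 to 25.1 CPM), with differences of -4.50 and -3.86 on the log2(CPM + 1) scale. *Emcn*, the gene of endomucin, had 0 to 0.0440 CPM in Etv2 Δ/Δ and 1.96 to 9.58 CPM in Etv2 +/+. The others that fell were *Pcdh12*, *Mcam*, *Robo4*, *Esm1*, and *Itga6*. None of the 19 passed in Etv2 enhΔ/Δ against Etv2 +/+.

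Among 7 relatives and partners of *Clec14a*, *Cd93*, and *Mmrn2*, 2 fell in Etv2 Δ/Δ. *Mmrn1*, the multimerin made by platelets and endothelium, had 0.0110 ± 0.0246 CPM in Etv2 Δ/Δ and 6.84 ± 3.23 CPM in Etv2 +/+, and *Thbd*, thrombomodulin, had 1.01 ± 0.933 and 9.56 ± 3.37 CPM. *Cd248*, a lectin of the same family that is known from mesenchymal cells, was higher (18.2 ± 5.02 against 8.69 ± 2.496 CPM; 0.96 ± 0.27, limma, adjusted p = 0.0162), a call that was lost in 7 of 22 cases. Of 12 mesoderm and mesothelium markers 9 were higher in Etv2 Δ/Δ.

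Of 8 genes of caveolae and diaphragms 2 fell, *Cav2* (0.154 ± 0.345 CPM in Etv2 Δ/Δ and 4.36 ± 1.81 CPM in Etv2 +/+) and *Ehd4*, an EH-domain membrane trafficking gene (20.4 ± 6.58 and 49.3 ± 5.29 CPM). *Cav1*, the main caveolin, had 0.432 ± 0.518 CPM in Etv2 Δ/Δ and 1.17 ± 0.667 CPM in Etv2 +/+ and did not pass (-0.47 ± 0.38, limma, adjusted p = 0.480). Endothelial markers other than the 9 genes were lower in 17 of 20 cases in Etv2 Δ/Δ (median -2.64), led by *Calcrl*, a receptor of adrenomedullin, with 1.55 ± 0.384 CPM in Etv2 Δ/Δ and 160 ± 34.5 CPM in Etv2 +/+. The 3 that did not pass were *Egfl7*, *Ecscr*, and *Sox17*, the last of which is also in the list of visceral endoderm markers.

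**Figure D4:**
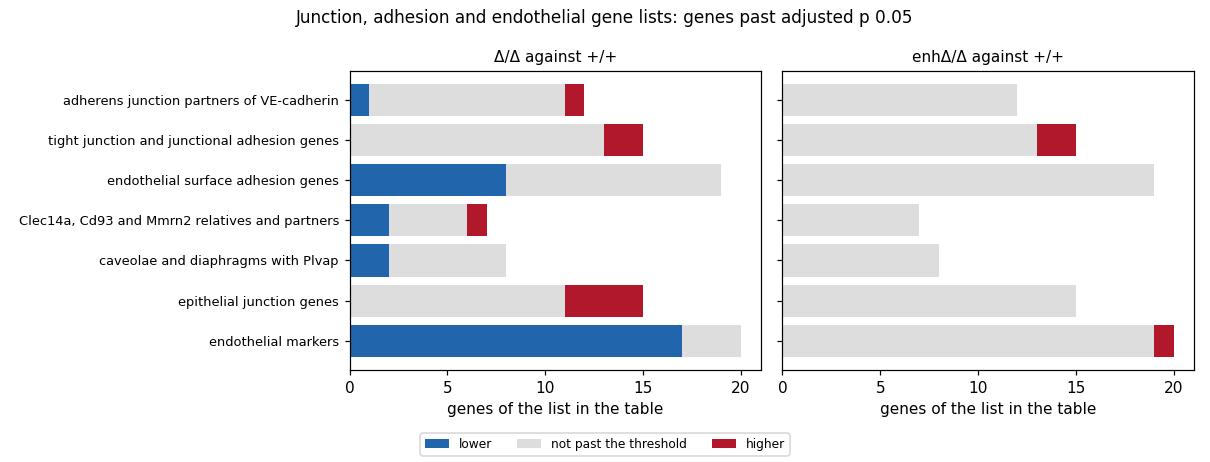
Numbers of genes (horizontal axes) in 7 lists of junction, adhesion, and endothelial genes that were lower (blue), not past an adjusted p of 0.05 (grey), or higher (red), in Etv2 Δ/Δ against Etv2 +/+ (left) and in Etv2 enhΔ/Δ against Etv2 +/+ (right). Lower genes are most numerous among endothelial markers (17 of 20) and endothelial surface adhesion genes (8 of 19) at the left, and none is lower at the right.

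Genes outside the 9 whose differences from Etv2 +/+ in the 5 other genotypes lay nearest to the median of the 9 were also looked up, among 10523 genes whose log2 values averaged 2 or more in Etv2 +/+. *Ldb2* was nearest, with a root mean square distance of 0.06 on the log2 scale, against a median distance of 1.41 over these genes. It was followed by *Elmo1* (0.17), *Ptprb* (0.18), *Fgd5* (0.23), *Notch1* (0.24), *Rasip1* (0.25), *Dusp6* (0.26), and *Lepr* (0.27). All 8 had a difference of -3.42 to -2.57 in Etv2 Δ/Δ and of 0.11 to 0.70 in Etv2 enhΔ/Δ, and the points share the Etv2 +/+ libraries. The 8 were picked by this distance, so that their nearness to the median follows from the choice. Of the 9 genes themselves, *Cdh5* (0.92), *Mmrn2* (0.47), *Esam* (0.41), and *Cldn5* (0.31) lay farther from their median than any of the 8. The rest of the 9 lay at 0.16 to 0.20. Genes of low level cannot fall as far on the log2(CPM + 1) scale. *Mmrn2*, *Esam*, and *Cldn5* had means of 5.80, 7.18, and 7.34 CPM in Etv2 +/+, but *Icam2*, with 6.57 CPM, lay at 0.16.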

How the data were processed

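RNA came from single yolk sacs (RNeasy Plus Micro kit, Trio RNA-seq library kit, HiSeq sequencing). Per the labels and the study's methods, reads were trimmed (fastq-mcf), mapped to mm9 (STAR 2.5.2a), and counted over Ensembl genes (featureCounts of Subread). The authors deposited log2(CPM + 1) values over library sizes scaled with normalization factors of edgeR. Each value matched a whole number of reads (100% within 0.01 reads), and the count of reads was recovered from it. The deposited table also holds the authors' fold changes and p values, which were not used. The study's model had batch, sex, and genotype as terms; sex is in the labels, and batch is not given in the sources used here.

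Linear models of genotype plus the labelled sex were fitted in limma 3.58.1 under R 4.3.3 (trend, moderated variances) to the deposited log2 values of all 18477 genes, unfiltered, in all 31 libraries (24 residual degrees of freedom). Samples were grouped by labelled genotype. Adjusted p values are Benjamini-Hochberg values over all genes for each comparison, with calls at 0.05. The libraries come from separate embryos. CPM and RPKM were computed from the deposited values and, for RPKM, merged exon lengths of an mm9 annotation. Intervals of pooled reads are exact and cover counting error only. Alternatives were no sex term, libraries left out, *Ftl2-ps* state, other pseudocounts, a filter, quantile normalization, and voom. The planned quasi-likelihood test of counts was not run, and voom on the recovered reads was the alternative based on counts. Fits were tested on simulated data.

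The 9 genes and all lists were chosen with earlier results of these data known. Besides the 9 genes, the text names the 4 genes of each list with the smallest F-test p, list genes that passed, the 8 genes nearest in pattern, and *Etv2*, *Ftl2-ps*, and *Xist*. Genes of the lists outside these, such as *Gp1ba*, *Cav1*, *Egfl7*, *Ecscr*, and *Sox17*, were named after their values were seen. Of the endothelial surface adhesion list, 3 genes were not analysed here. Promoter windows were taken from RefSeq (GRCm38.p6). Python 3.11.15 with numpy 2.4.6, pandas 2.3.3, scipy 1.17.1, and matplotlib 3.10.9 was used for other values.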

Additional observations from a re-analysis of the deposited data

Results flagged for a closer look

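Within genotypes, the library at one end stood apart from the rest, by Dixon's test on log2 values, in 7 of 54 combinations of gene and genotype; chance alone gives about 1 in 20. In the null, *Cd93* had 0.609 CPM in Etv2 Δ/Δ replicate 5, against 11.04 to 20.4 CPM in the other 4 libraries, and *Cldn5* had 0.378 CPM in replicate 1, which was a single read in the shallowest library, against 0 to 0.0871 CPM. *Plvap* had 13.5 CPM in Etv2 enhΔ/Δ replicate 2, against 21.8 to 24.4 CPM in the others. *Pecam1* had 15.7 CPM in Etv2 enhΔ/enhΔ replicate 5, against 25.6 to 28.8 CPM. Etv2 +/enhΔ replicate 4 stood apart for 2 genes, low for *Cdh5* with 60.5 CPM (others 83.3 to 87.1) and high for *Cldn5* with 10.4 CPM (others 5.56 to 6.03). *Cd93* had 61.6 CPM in Etv2 +/+ replicate 1, the Etv2 +/+ library with few *Ftl2-ps* reads, against 91.5 to 112 CPM in the others.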

How the results depend on the processing

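All 585 values of the 9 genes in the comparisons of Etv2 Δ/Δ with Etv2 +/+, Etv2 enhΔ/Δ, and Etv2 +/Δ stayed lower and past the threshold under each alternative fit and with each library left out (largest adjusted p 0.0423, limma). Of 1287 values in the other comparisons, 76 changed sign, none of them called, and 19 changed sides of the threshold. In Etv2 enhΔ/Δ against Etv2 +/+, 1 gene (*Cdh5*) passed with the 2 genotypes alone and, an alternative chosen after seeing the data, without the Etv2 Δ/Δ libraries. Against Etv2 enhΔ/enhΔ, 0 passed with few *Ftl2-ps* reads, with log2(CPM + 0.25), at an adjusted p under 0.01, or with the 2 genotypes alone, 0 to 1 with a library left out, and 3 without the Etv2 Δ/Δ libraries, with or without the *Ftl2-ps* term (both added after seeing the data); voom passed *Cdh5* (adjusted p = 0.0159) in place of *Mmrn2* (0.0621). The cause was not tested. List genes called against Etv2 +/+ in the nulls or in Etv2 enhΔ/Δ kept their direction under each alternative, but not their calls. Of 62 such calls in Etv2 Δ/Δ, 34 were lost in the libraries with few *Ftl2-ps* reads, 13 with the *Ftl2-ps* term (*Esm1*, *Robo4*, *Ocln*, and *Pkp2* among them), and 1 to 8 with a library left out; of 16 in Etv2 enhΔ/Δ, 15, 8, and 1 to 4 were lost. Among those lost with few *Ftl2-ps* reads were *Itga6*, *Mcam*, *Emcn*, *Mmrn1*, *Thbd*, *Cav2*, *Ehd4*, *Ctnnb1*, and *Dsc2* (adjusted p = 0.0509 to 0.245, limma).

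Without the libraries with many *Ftl2-ps* reads, Etv2 +/+ was left with replicate 1 and Etv2 +/enhΔ with 1 library, which the fit assumes to vary like the others. Levels in Etv2 +/+ were then 11.9 CPM for *Esam*, 32.7 for *Pecam1*, 13.2 for *Clec14a*, 61.6 for *Cd93*, and 9.75 for *Plvap*, and *Clec14a* had 23.7 CPM in Etv2 +/enhΔ. Replicate numbers did not pair the samples: residuals of 71 same-numbered pairs correlated at -0.107 to 0.122 (1 pair over 0.1), and 3 libraries correlated best with their own number. With the replicate block all 9 members were called lower in each comparison of Etv2 Δ/Δ. Of all 18477 genes, 1233 were then lower against Etv2 +/+, 548 against Etv2 enhΔ/Δ, and 1276 against Etv2 +/Δ. In Etv2 enhΔ/Δ against Etv2 enhΔ/enhΔ 1 member was called higher, where 230 of all genes were, and no member was called in the other comparisons. The planned quasi-likelihood test was not run. Depth limits *Cldn5*, *Esam*, *Icam2*, *Mmrn2*, and *Plvap* in the null, where 3 reads are worth 0.132 to 1.13 CPM. *Esam* had 33 reads in Etv2 Δ/Δ replicate 2 and at most 3 in each other null library.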
